A study of Mus musculus with 8 samples.

Results

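The expression of 9 long noncoding RNA genes was followed through IL-10 receptor blockade: Malat1, Neat1 and 7 hosts of small nucleolar RNAs (Gas5, Snhg1, Snhg3, Snhg5, Snhg6, Snhg8 and Snhg12). They are named members of a list, and a gene was measured if a row of the value table carried its symbol and no other. By that rule 7 of the 9 genes had values, on 8 rows, out of 22180 genes with such a row, and all 7 were bright enough to be tested among 12019 genes. Gas5 and Snhg8 lie only on rows that also carry a second symbol (Mir5117 and Snora24), so by the rule their values are not given. RefSeq lists Mir5117 as a synonym of Gas5, whereas the platform annotation gives it a gene identifier of its own. Malat1 had 2 rows, and the brighter one, chosen by its mean over the 8 arrays, stands for the gene. The members were proposed with earlier results of this same comparison in view. Their differences are therefore a description, and an adjusted p only places a member within the fit over all tested genes.

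MALAT1 and NEAT1 are long RNAs that stay in the nucleus, where MALAT1 gathers in nuclear speckles with splicing factors and NEAT1 forms the scaffold of paraspeckles. The Snhg genes and Gas5 are spliced RNAs whose introns are processed into small nucleolar RNAs (snoRNAs), which guide chemical modification or cleavage of ribosomal RNA. Many of these host genes begin with a run of pyrimidines (a 5' terminal oligopyrimidine start), as ribosomal protein genes do. Their spliced RNAs are loaded on ribosomes and removed by nonsense-mediated decay, so their level is known to move with cell growth and translation.

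Female C57BL/6 mice carried transplanted chronic lymphocytic leukaemia (CLL) cells from Eµ-TCL1 mice, in which a TCL1 transgene under an immunoglobulin enhancer drives a B cell leukaemia. From 3 weeks after transplantation one group received an antibody that blocks the IL-10 receptor (anti-IL-10R) and the other an isotype control antibody, both by intraperitoneal injection, and treatment lasted 2 weeks. At 5 weeks PD-1hi effector CD8+ T cells (lineage negative, TCRb+, CD8+, CD127 low, CD44 intermediate to high) were sorted from the spleen, and their total RNA was put on Mouse Gene 2.0 ST arrays, 4 arrays per group. Both groups carried the leukaemia, and no group without it is used here. The labels do not say whether each array came from a single mouse. A p-value here therefore sets a difference between the groups against the spread of arrays within a group, and that spread may be technical.

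The 4 members with the largest differences and a start site in RefSeq's promoter table are shown at that site, together with Snhg12 as a host whose groups differed little. Each line holds 100 bases of GRCm38.p6 centred on the annotated start (50 before it and 50 from it on), 5' to 3'. Capitals mark the letters TATAA where they lie 15 to 50 bases before the start, and a pyrimidine run of 5 or more bases that begins with C within 10 bases of the start.
Malat1, chr19:5802623-5802722, minus strand: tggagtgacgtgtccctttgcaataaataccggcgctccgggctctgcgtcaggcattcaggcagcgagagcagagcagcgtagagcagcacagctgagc
Snhg1, chr19:8723437-8723536, plus strand: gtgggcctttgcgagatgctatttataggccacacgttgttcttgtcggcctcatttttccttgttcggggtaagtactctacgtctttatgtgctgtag
Snhg3, chr4:132353637-132353736, minus strand: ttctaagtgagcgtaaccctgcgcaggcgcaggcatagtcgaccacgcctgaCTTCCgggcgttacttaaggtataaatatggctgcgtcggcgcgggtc
Snhg5, chr9:88522848-88522947, minus strand: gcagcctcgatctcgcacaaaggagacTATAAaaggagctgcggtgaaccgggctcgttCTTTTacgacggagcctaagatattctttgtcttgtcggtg
Snhg12, chr4:132308628-132308727, plus strand: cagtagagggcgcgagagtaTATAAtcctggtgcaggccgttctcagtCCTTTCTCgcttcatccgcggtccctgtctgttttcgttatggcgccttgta
A TATAA was found 23 bases before the start of Snhg5 and 30 bases before that of Snhg12, and 4.27% of the 32851 RefSeq promoters hold one on that strand at that place. Pyrimidine runs were found in Snhg3, Snhg5 and Snhg12, with 5, 5 and 8 bases, against 30.7% of all promoters. The longest such run near the start was 4 bases in both Snhg1 and Malat1. The letters CACGTG, which read the same on both strands and are the binding letters of MYC with MAX, were in none of the members' windows of 300 bases and in 7.15% of all promoters. These matches describe the letters only. Neat1 and Snhg6 have no entry in that table.

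Isotype replicate 1 stood apart from the other arrays (Pearson's r across tested genes of 0.915 to 0.929 with them, against medians of 0.964 to 0.973 for the other arrays). The difference of each member, and those of some other genes, are therefore also given without it. The 6 CD8 T cell markers (the CD3 chains, both CD8 chains and Pdcd1) were all above the filter, with a mean log2 signal that did not overlap between the groups (11.52 to 11.83 in isotype, at most 12.04 in anti-IL-10R arrays). Of 9 measured B cell markers 4 were above the filter, and the summed log2 signal of the 9 ran from 45.47 to 51.93 under isotype and from 44.96 to 47.22 under blockade. Above the filter were also 1 of 2 markers of CD4 and regulatory T cells, 2 of 7 myeloid, 2 of 4 dendritic cell, 0 of 2 NK cell and 1 of 3 platelet markers. Foxp3, the regulatory T cell factor, was at 7.97 in isotype replicate 1 and between 5.08 and 5.95 in the other 7 arrays. That array also had the lowest mean of the CD8 markers (11.52). Its mean was the highest for the CD4 and regulatory T cell (6.72), myeloid (5.21) and NK cell markers (4.9). For the B cell (5.38), dendritic cell (5.13) and platelet markers (5.0) it lay inside the range of the other arrays. None of the markers passed the threshold. A fit with a B cell marker covariate is among the alternatives given at the end. The part of other cells in the results below was otherwise not tested.

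After IL-10 receptor blockade the nuclear RNA Malat1 rose, and it was the only member past the threshold of an adjusted p below 0.05 (limma, Benjamini-Hochberg over all tested genes). No member fell past it. Of all tested genes 1.23% were higher and 1.3% lower by this rule. The means of Malat1 and Neat1 were higher in the treated arrays and the means of all 5 measured snoRNA hosts were lower. Malat1 and Neat1 were higher, and Snhg3 lower, in every anti-IL-10R array than in any isotype array; of all tested genes 9.32% were separated upward in this way and 5.99% downward. An unadjusted p below 0.05 was reached by 5 of the 7 members (Malat1, Neat1, Snhg1, Snhg3 and Snhg5) and by 2402 of the 12019 tested genes. Without isotype replicate 1, Malat1 stayed past the threshold and Snhg3 and Snhg5 were lower past it, where the fit called 3.35% of all genes higher and 5.9% lower.

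**Figure D1:**
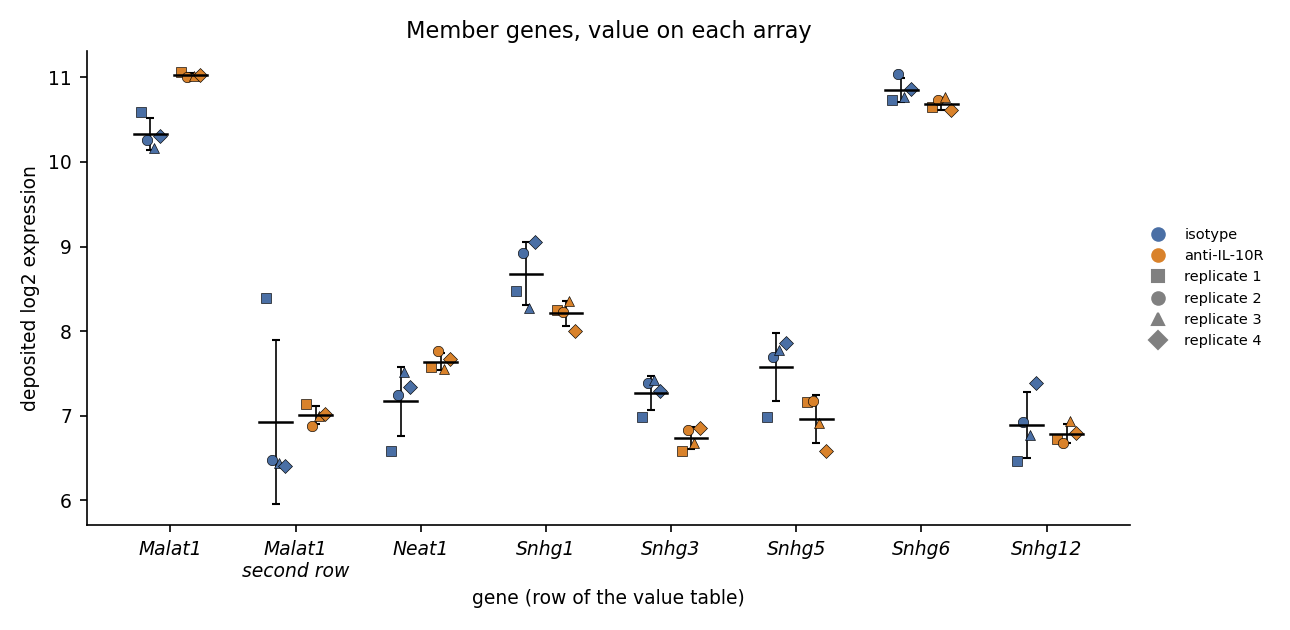
Deposited log2 expression (vertical axis) of the 7 measured long noncoding RNA genes and of the second row of Malat1 (horizontal axis) on each of the 8 arrays; blue marks isotype and orange anti-IL-10R arrays, the shape gives the replicate number, and bars are the group mean and SD (n = 4). All 4 orange points lie above all blue points for Malat1 and Neat1 and below them for Snhg3, and isotype replicate 1 is the blue square at 8.39 on the second row of Malat1.

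Malat1 (transcript cluster 17361798) had log2 values of 10.59, 10.26, 10.16 and 10.31 in isotype replicates 1 to 4 and of 11.06, 11.01, 11.02 and 11.03 in anti-IL-10R replicates 1 to 4. The treated arrays lay within a very narrow band, all of them above the highest isotype array, which was replicate 1. The means were 10.33 ± 0.19 (SD, n = 4) and 11.03 ± 0.02, a difference of 0.70 ± 0.12 (SE) on the log2 scale with a 95% interval of 0.44 to 0.96, or 1.63-fold (limma adjusted p 0.0248). In a bulk sample, more cells that express a gene and more RNA per cell cannot be told apart. Leaving out isotype replicate 1 gave 0.79 (adjusted p 0.00482). Leaving out any one of the other 7 arrays ended the call, with adjusted p of 0.0632 to 0.0941, while the difference stayed between 0.64 and 0.71. Over the 18 alternative fits the adjusted p of Malat1 ran from 0.00171 to 0.42, and 7 of them kept the call.

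The second row of Malat1 (transcript cluster 17356556) did not give the same picture on all arrays. It read 8.39, 6.48, 6.44 and 6.41 in isotype replicates 1 to 4 and 7.14, 6.88, 7.0 and 7.02 in the anti-IL-10R arrays. Isotype replicate 1 was the highest of all 8 arrays on this row, and the other 3 isotype arrays were below every treated array. The difference was 0.08 ± 0.42 over all arrays (limma adjusted p 0.953 in a fit over all rows of the table) and 0.57 ± 0.09 without isotype replicate 1 (0.0638 in the same kind of fit). When both rows were averaged, the difference of Malat1 was 0.39 and its adjusted p 0.42.

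Neat1 (transcript cluster 17361805), the paraspeckle RNA and the neighbour of Malat1 on chromosome 19, read 6.58, 7.24, 7.52 and 7.34 in the isotype arrays and 7.58, 7.77, 7.55 and 7.67 in the anti-IL-10R arrays. The groups did not overlap, but the gap between them was small, and isotype replicate 1 was by far the lowest array. The means were 7.17 ± 0.41 and 7.64 ± 0.10, a difference of 0.47 ± 0.19 with an interval of 0.05 to 0.89 (limma adjusted p 0.203). Without isotype replicate 1 the difference was 0.28 ± 0.11 (adjusted p 0.13), so that one array carried much of its size, and the range with each array left out was 0.28 to 0.59. Neat1 was past the threshold in none of the 18 alternatives (adjusted p 0.116 to 0.368). Frmd8, the next measured coding gene on that side of the pair, differed by 0.12 ± 0.15 (adjusted p 0.702; -0.02 without isotype replicate 1).

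Among the snoRNA hosts, Snhg3, which carries the U17 snoRNAs (Snora73a and Snora73b) that act in ribosomal RNA cleavage, separated the groups. Snhg3 (transcript cluster 17430824) had values of 6.99, 7.39, 7.42 and 7.29 in the isotype arrays and of 6.58, 6.83, 6.68 and 6.86 in the anti-IL-10R arrays. Every treated array was below every isotype array, and isotype replicate 1 was the closest to the treated ones. The means were 7.27 ± 0.20 and 6.74 ± 0.13, a difference of -0.54 ± 0.13 with an interval of -0.83 to -0.25, which missed the threshold (limma adjusted p 0.0614). It was past the threshold in 4 of the 18 alternatives: without isotype replicate 1 (-0.63, adjusted p 0.00941), after quantile normalization (-0.62, 0.0173), with array weights (-0.62, 0.00488) and under a stricter filter on dim genes (-0.54, 0.0384). The adjusted p over all 18 ran from 0.00488 to 0.254, and with each array left out in turn the difference stayed between -0.63 and -0.49.

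Snhg5 (transcript cluster 17529549), a host of U50 snoRNAs, had values of 6.99, 7.69, 7.78 and 7.86 in the isotype arrays and of 7.16, 7.17, 6.91 and 6.58 in the anti-IL-10R arrays. Isotype replicate 1 lay among the treated arrays, and the other 3 isotype arrays were above all of them. The means were 7.58 ± 0.40 and 6.96 ± 0.28, a difference of -0.62 ± 0.21 with an interval of -1.10 to -0.15 (limma adjusted p 0.142). Without isotype replicate 1 it was -0.82 ± 0.15 (adjusted p 0.0132), and with each array left out it ranged from -0.82 to -0.50, and over all 18 alternatives the adjusted p ran from 0.00843 (array weights, difference -0.77) to 0.358.

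Snhg1 (transcript cluster 17357126), which hosts a series of C/D box snoRNAs, had values of 8.48, 8.93, 8.27 and 9.05 in the isotype arrays and of 8.25, 8.23, 8.36 and 8.0 in the anti-IL-10R arrays. The groups overlapped through isotype replicate 3, which was among the treated values, while isotype replicates 2 and 4 were well above them. The means were 8.68 ± 0.37 and 8.21 ± 0.15, and the difference was -0.47 ± 0.18 with an interval of -0.88 to -0.07 (limma adjusted p 0.188; -0.54 and 0.0941 without isotype replicate 1).

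The other measured hosts differed less. Snhg6 (transcript cluster 17221186), a host of the C/D box snoRNA Snord87, read 10.73, 11.04, 10.77 and 10.86 in the isotype arrays and 10.65, 10.73, 10.77 and 10.61 in the anti-IL-10R arrays, with overlapping groups. Its difference was -0.16 ± 0.11 with an interval of -0.40 to 0.08 (limma adjusted p 0.451), and -0.20 without isotype replicate 1. Snhg12 (transcript cluster 17419389), which hosts H/ACA and C/D box snoRNAs, read 6.46, 6.93, 6.77 and 7.39 in the isotype arrays and 6.73, 6.68, 6.94 and 6.80 in the anti-IL-10R arrays. All treated values of Snhg12 lay inside the isotype range. Its difference was -0.10 ± 0.18 with an interval of -0.51 to 0.31 (adjusted p 0.804), -0.24 without isotype replicate 1 and 0.07 without isotype replicate 4. The intervals of Snhg6 and Snhg12 reach well below 0, so these values do not show that the 2 hosts kept their level. The median difference of the 5 hosts was -0.47 (-0.54 without isotype replicate 1), beside a median of 0.028 (-0.007) over all tested genes.

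**Figure D2:**
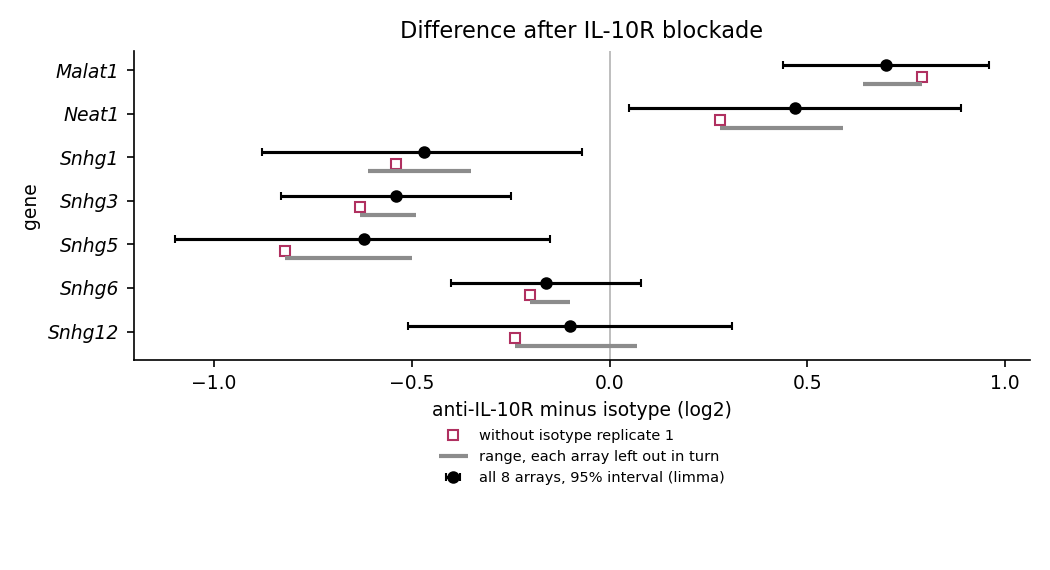
Treated minus control difference, log2 scale (horizontal axis), for each member (vertical axis): black points and bars are the limma estimate from all 8 arrays with its 95% interval, open squares the value without isotype replicate 1, and grey bars the range with each array left out in turn. Malat1 and Neat1 lie to the right of 0 and the 5 snoRNA hosts to the left, and only the grey bar of Snhg12, from -0.24 to 0.07, crosses 0.

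The snoRNAs carried by these hosts were mostly not measured on rows of their own. RefSeq places 26 snoRNA genes inside the 9 genes, of which 9 had a row with 1 symbol, 8 of them inside measured members. All 9 were tested, and 1 was lower past the threshold and 0 higher, beside 1.3% and 1.23% of all tested genes. That gene was Snora73b, in an intron of Snhg3. The probes of such a row can also bind the host's unspliced RNA, and Snora73a and Snora73b are similar copies, so their signals may not be separate.

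Snora73b read 7.17, 8.24, 8.41 and 8.17 in the isotype arrays and 6.88, 6.74, 7.05 and 6.78 in the anti-IL-10R arrays. The groups did not overlap, and isotype replicate 1 was the one isotype array near the treated ones. The means were 8.0 ± 0.56 and 6.86 ± 0.14, a difference of -1.13 ± 0.24 with an interval of -1.68 to -0.59, or 2.19-fold lower (limma adjusted p 0.0478). Without isotype replicate 1 it was -1.41 ± 0.11 (adjusted p 0.00121), and leaving out any one of the other 7 arrays ended the call (adjusted p 0.102 to 0.127, difference -1.19 to -1.0); over all 18 alternatives the adjusted p ran from 0.00117 to 0.204. Snora73a read 6.09, 6.88, 7.21 and 7.06 against 6.03, 5.97, 6.11 and 6.09. Isotype replicate 1 was level with the treated arrays, and the other 3 isotype arrays were above them. Its difference was -0.76 ± 0.22 (adjusted p 0.093; -1.0 and 0.00404 without isotype replicate 1).

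The other snoRNA rows were not past the threshold. Snord22, in Snhg1, differed by -0.31 ± 0.23 (limma adjusted p 0.495), and Snord87, in Snhg6, by 0.19 ± 0.30 (0.767; -0.08 without isotype replicate 1). Of the 4 snoRNAs of Snhg12, Snora44 and Snora61 differed by 0.00 ± 0.13 and -0.02 ± 0.13, and Snora16a and Snord99 by 0.13 ± 0.48 and -0.47 ± 0.49 (-0.20 and -0.86 without isotype replicate 1). Snord47, in Gas5, differed by -0.16 ± 0.28 (adjusted p 0.801; -0.45 and 0.134 without isotype replicate 1) and is the one snoRNA of Gas5 with a row of its own symbol.

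The coding neighbours of the members did not move as one. Rcc1, the nucleotide exchange factor of the small GTPase Ran in nuclear transport and mitosis, is the coding gene next to Snhg3 on one side. Rcc1 read 8.04, 8.41, 8.01 and 8.28 in the isotype arrays and 7.61, 7.58, 7.35 and 7.07 in the anti-IL-10R arrays, with every treated array below every isotype array. The means were 8.18 ± 0.19 and 7.40 ± 0.25, a fall of 0.78 ± 0.15 (difference -0.78, interval -1.12 to -0.44; limma adjusted p 0.0371). The value without isotype replicate 1 was -0.83 (adjusted p 0.0141), and leaving out any other array ended the call (adjusted p 0.0682 to 0.122, difference -0.85 to -0.67; 0.0058 to 0.122 over the 18 alternatives). Phactr4, on the far side of Snhg3, differed by -0.06 ± 0.12 (adjusted p 0.837). RefSeq's gene models of Snhg3 and Rcc1 do not overlap, as the choice of neighbours required. Where the probes of the 2 rows lie was not looked at, so this does not show that their signals are separate.

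**Figure D3:**
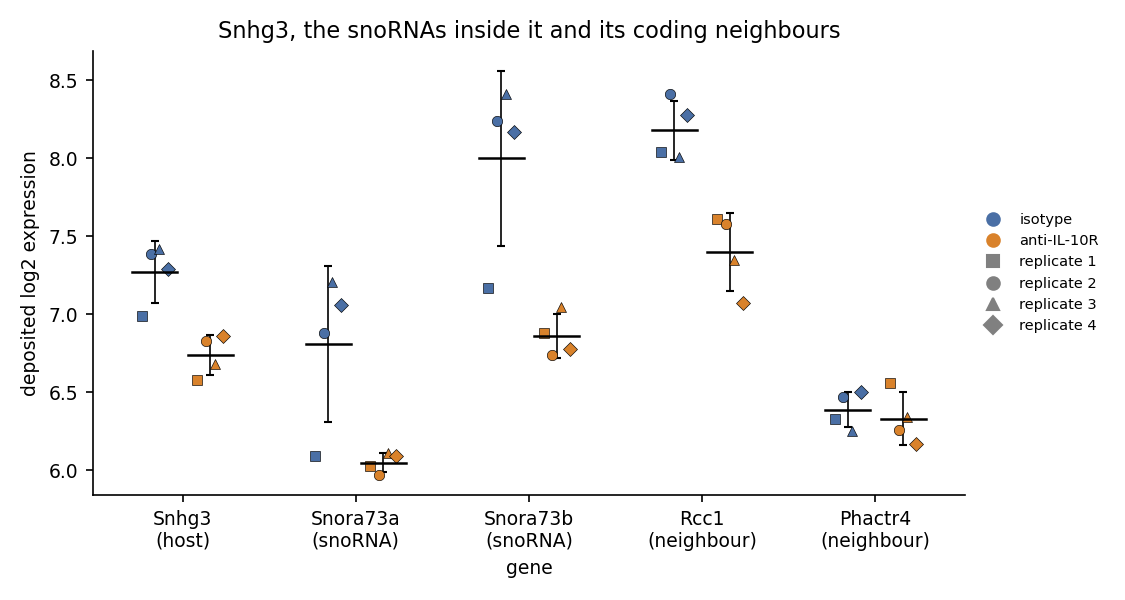
Deposited log2 expression (vertical axis) of Snhg3, of the snoRNAs Snora73a and Snora73b inside it and of its coding neighbours Rcc1 and Phactr4 (horizontal axis) on each array; blue marks isotype and orange anti-IL-10R arrays, the shape gives the replicate number, and bars are the group mean and SD (n = 4). The groups are apart for Snhg3, Snora73b and Rcc1, touch at isotype replicate 1 for Snora73a, and overlap for Phactr4.

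Next to Snhg1, Wdr74, a factor of ribosome assembly, differed by -0.40 ± 0.15 (limma adjusted p 0.176; -0.50 and 0.0455 without isotype replicate 1). Slc3a2, the heavy chain of amino acid transporters on the other side of Snhg1, differed by -0.09 ± 0.12 (0.721). Beside Snhg5, the RNA-binding protein gene Syncrip differed by -0.25 ± 0.13 (0.345), or by -0.36 (0.0542) without isotype replicate 1. On the other side of Snhg5, the zinc finger gene Zfp949 was higher in every treated array, by 0.69 ± 0.24 (0.152), or by 0.44 without isotype replicate 1. Zfp949 and Snhg5, its neighbour, thus had differences of opposite sign. Trnau1ap, beside Snhg12, differed by -0.06 ± 0.26 (0.933; -0.36 without isotype replicate 1), and Sgk3, beside Snhg6, by -0.07 ± 0.18 (0.872). Tcf24 and Rab42 were too dim to be tested.

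Across the 8 arrays Malat1 and Snhg3 had opposite patterns. Pearson's r was -0.96, it was -0.86 after each group's mean was removed, and -0.97 without isotype replicate 1, but with both steps together it was -0.50. Malat1 and Snhg5 had an r of -0.85 (0.06 with both steps). Malat1 and Neat1 had an r of 0.42 over 8 arrays, 0.76 without isotype replicate 1 and -0.96 within groups (-0.65 within groups without that array). Isotype replicate 1 was the highest isotype array for Malat1 and the lowest for Neat1. Among the hosts, Snhg1 and Snhg6 had the highest r, 0.84, and Snhg3 and Snhg12 the lowest, 0.36. These are descriptions over 8 arrays that share a group difference and 1 array set apart.

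For each member, the genes with the most similar pattern were taken as the 3 with the highest r over the 8 arrays. Members, snoRNA and microRNA genes, predicted genes and genes with clone names were left out first. The snoRNAs of a host could therefore not appear. For Malat1 they were Gabbr1 (r 0.987), which encodes a GABA receptor subunit, Dlgap4 (0.978) and Zfp651 (0.967). For Neat1 they were Dhx57 (0.994), the lysosomal protease gene Ctsd (0.989) and Syna (0.989). For Snhg3 they were the histone gene H4c9 (0.965), Mthfd1 (0.964), an enzyme of one-carbon metabolism, and Utp3 (0.964), a factor of ribosomal RNA processing. For Snhg5 they were Fen1 (0.987), a nuclease of DNA replication, Psat1 (0.984), an enzyme of serine synthesis, and Mrpl51 (0.981), a mitochondrial ribosomal protein. Those nearest to Snhg1 were Timp2, Riok2 and Arpc5l (0.963 to 0.960), those nearest to Snhg6 were Dph5, Psma2 and Rpl34 (0.979 to 0.966), and those nearest to Snhg12 were Csnk1e, Eif1a and Cwf19l1 (0.971 to 0.956). All of these genes were picked for their r out of the tested genes that were left, so its size is no finding. A gene picked in this way carries the member's group difference with it.

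Long noncoding RNAs outside the list were set beside the members. Of 17 other snoRNA hosts listed, 15 were measured and 11 tested. None of them passed the threshold in either direction (limma), 4 had an unadjusted p below 0.05, and their median difference was 0.07 (-0.12 without isotype replicate 1 and -0.05 without anti-IL-10R replicate 1), with 6 means higher and 5 lower. Snhg15 differed by -0.59 ± 0.15 (adjusted p 0.0765) and Snhg20 by 0.66 ± 0.20 (0.11), each with groups that did not overlap. Leaving out isotype replicate 1 gave -0.6 (adjusted p 0.0466) and 0.44 (0.0271). In that fit 1 of the 11 was higher and 2 were lower past the threshold, beside 3.35% and 5.9% of all tested genes. Of those genes 9.32% were separated upward and 5.99% downward over all 8 arrays, and 2402 of 12019 had an unadjusted p below 0.05.

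Of 29 other long noncoding RNAs of the nucleus or of lymphocytes, 21 were measured and 17 tested. Past the threshold 2 were higher and 0 lower, beside 1.23% and 1.3% of all tested genes. The median of the 17 was 0.29 (0.22 without isotype replicate 1), beside 0.028 (-0.007) over all tested genes. A higher mean in the treated arrays was found in 13 of the 17. Lncpint, a noncoding RNA induced by p53, read 7.09, 6.91, 7.09 and 6.74 in the isotype arrays and 7.84, 8.27, 8.23 and 8.79 in the anti-IL-10R arrays. All treated arrays were above all isotype arrays, with means of 6.96 ± 0.17 and 8.28 ± 0.39 and a difference of 1.33 ± 0.19 (2.51-fold; adjusted p 0.0176). Its call held when isotype replicate 1 or 3 was left out and when anti-IL-10R replicate 1 was, and leaving out any other array gave an adjusted p of 0.0503 to 0.0699. Firre, an X-linked RNA that organises chromatin in the nucleus, read 6.23, 6.34, 6.24 and 6.39 against 7.15, 6.65, 6.90 and 7.42. It was higher by 0.73 ± 0.16 with no overlap (adjusted p 0.0491), and of the fits with 1 array left out, the one without isotype replicate 1 kept the call (0.0666 to 0.124 in the other 7). The differences of the 17 ran from -0.36 (Terc) to 1.33 (Lncpint).

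**Figure D4:**
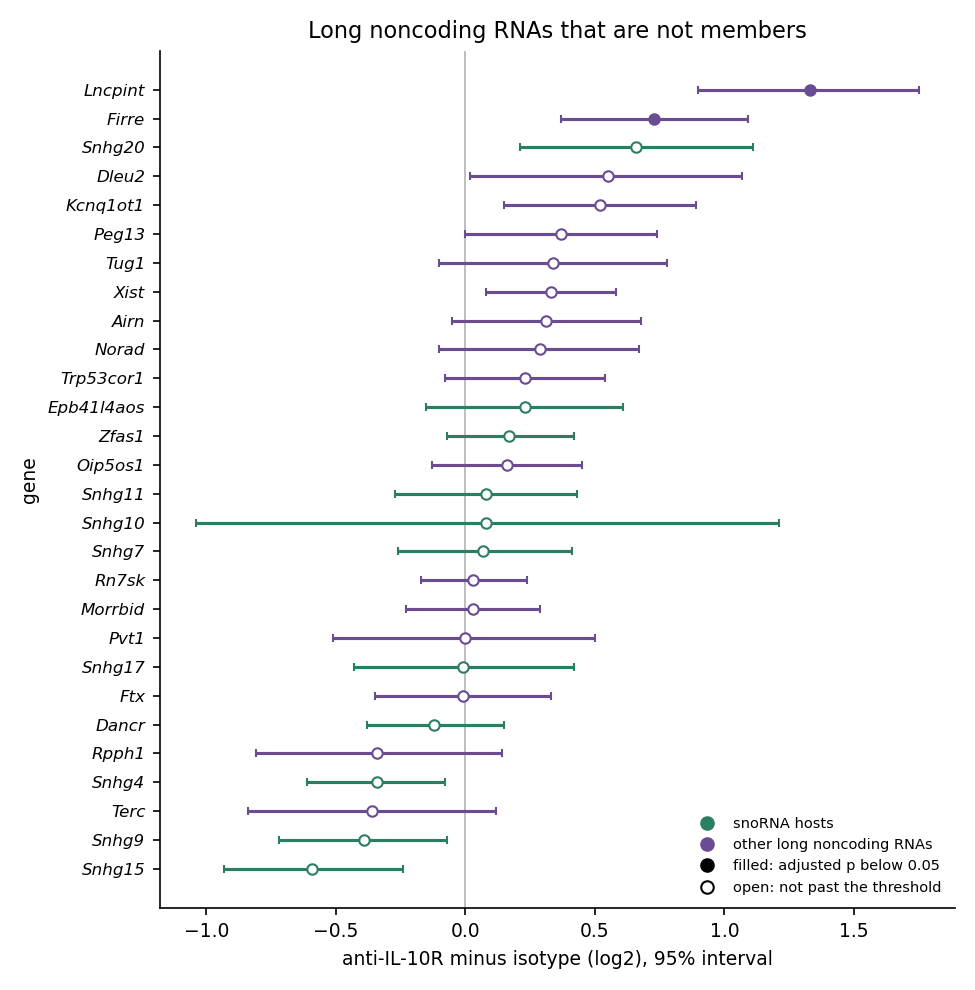
Treated minus control difference, log2 scale, with its 95% interval (horizontal axis) for the tested long noncoding RNAs that are not members (vertical axis), snoRNA hosts in green and others in purple; filled points have an adjusted p below 0.05 and open points do not. Lncpint (1.33) and Firre (0.73) are the filled points, and the green points spread on both sides of 0.

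RNAs that encode proteins working with Malat1 and Neat1 were set beside them. Of 15 listed genes for paraspeckle proteins, 11 were measured and tested. Past the threshold 1 was lower and 0 higher, beside 1.3% and 1.23% of all tested genes. Their median was -0.06 (-0.01 without isotype replicate 4). Without isotype replicate 1 the median was -0.17 and 2 were lower past the threshold, beside 5.9% of all tested genes. Pspc1, which encodes a core paraspeckle protein, was the gene called over all 8 arrays. It read 7.99, 7.83, 7.94 and 7.87 in the isotype and 7.64, 7.16, 7.25 and 6.97 in the anti-IL-10R arrays, all treated arrays lower. Pspc1 fell by 0.65 ± 0.15 (limma adjusted p 0.0498), and the call held when replicate 1 of either group was left out and was lost without any other array (0.0965 to 0.146). Of 22 tested nuclear speckle and splicing genes, 1 was higher past the threshold and 0 lower, beside 1.23% and 1.3% of all tested genes. Without isotype replicate 1, 1 was higher and 1 lower past it, beside 3.35% and 5.9% of all tested genes. The median of the 22 was 0.02 (-0.03 to 0.06 with 1 array left out). Clk1, a kinase of SR splicing factors, read 9.48, 9.57, 9.47 and 9.65 against 10.24, 10.22, 10.21 and 10.44. Clk1 rose by 0.73 ± 0.10 with groups far apart (adjusted p 0.0176). The call held when isotype replicate 1 or 2 was left out and when anti-IL-10R replicate 1 was, and without any other array the adjusted p was 0.0538 to 0.0699.

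Genes for proteins that assemble with snoRNAs were mostly lower in mean. Of 14 tested genes for snoRNP proteins and assembly factors (15 measured, 16 listed), 12 had a lower mean in the treated arrays. The median of the 14 was -0.32, beside 0.028 over all tested genes. Leaving out isotype replicate 1 gave -0.40, isotype replicate 4 gave -0.19, isotype replicate 2 gave -0.21 and anti-IL-10R replicate 4 gave -0.22. None of the 14 passed the threshold (limma), and 4 had an unadjusted p below 0.05, beside 2402 of the 12019 tested genes. Without isotype replicate 1, 6 were lower past the threshold, beside 5.9% of all tested genes. Over all 8 arrays 3 of the 14 were separated downward, beside 5.99% of all tested genes. Nhp2 and Gar1, subunits of the H/ACA snoRNP that binds RNAs such as those of Snhg3, differed by -0.61 ± 0.16 (adjusted p 0.0815; -0.72 and 0.0178 without isotype replicate 1) and by -0.52 ± 0.15 (0.104; -0.59 and 0.0377), each with no overlap between the groups.

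Of the 55 tested cytosolic ribosomal protein genes (63 measured), which share the pyrimidine start with many hosts, 46 had a lower mean in the treated arrays, but the median was only -0.09 (-0.14 without isotype replicate 1 and -0.04 without isotype replicate 2). None passed the threshold (limma), and 9 of the 55 had an unadjusted p below 0.05, beside 2402 of the 12019 tested genes. Without isotype replicate 1, 4 were lower past the threshold, beside 5.9% of all tested genes. Rps7 and Rps25 had the largest differences, -0.68 ± 0.21 (adjusted p 0.119) and -0.45 ± 0.16 (0.167).

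Of 14 listed genes for factors of nonsense-mediated decay, which remove spliced host RNAs, 9 were tested. None of the 9 passed the threshold (limma), and 1 had an unadjusted p below 0.05, beside 2402 of the 12019 tested genes. The median was 0.15 (-0.07 without isotype replicate 1), beside 0.028 (-0.007) over all tested genes. The kinase Smg1 differed by 0.38 ± 0.11 (adjusted p 0.101), with groups apart, and Upf2 by 0.36 ± 0.18 (0.292), with groups that overlapped. MYC and the growth kinase complex mTORC1, which act upstream of ribosome production, were followed through 17 tested genes (18 measured). Of these, 1 was higher past the threshold and 0 lower, beside 1.23% and 1.3% of all tested genes. Without isotype replicate 1, 2 were lower past it, beside 5.9% of all tested genes. The median was 0.04 and ran from 0.00 to 0.14 with 1 array left out. The higher gene was Mxd4, which encodes an antagonist of MYC that pairs with MAX and read 7.75, 7.94, 8.01 and 7.83 in the isotype and 9.17, 9.52, 9.48 and 9.37 in the anti-IL-10R arrays. Mxd4 rose by 1.5 ± 0.12 (2.84-fold; adjusted p 0.00147) with groups far apart, and the call held in all 18 alternative fits.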

How the data were processed

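Sorted PD-1hi effector CD8+ T cells from 8 samples were measured on Mouse Gene 2.0 ST arrays, 1 sample per array. The deposited values are log2 expression, 1 per transcript cluster (41345 rows), which the authors made, per the submitters' processing notes, in Affymetrix Power Tools. Its version, summary algorithm and normalization are stated in none of the sources used here; array medians were 5.19 to 5.31. Rows were named from the platform annotation, with symbols updated by gene identifier against RefSeq: 23521 rows had 1 symbol, 1814 several and 16010 none.

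The brightest row per gene was kept, and genes with a mean of at least 5.24 (the median of all row means) were tested with limma 3.58.1 in R 4.3.3 (lmFit, eBayes without trend, total df 9.59), two-sided, Benjamini-Hochberg adjusted over 12019 genes. The fit was tested on simulated data with independent noise for each gene. Those data held no array that stood apart, so they do not bear on the effect of isotype replicate 1. The number of arrays limits the precision. The members, the gene lists and the rule for named genes were chosen with earlier results of these data known. That rule took the members, the snoRNAs inside them, their nearest coding genes and the 3 most correlated genes. Members, snoRNA, microRNA, predicted and clone-named genes were left out of the correlated ones. From each list it took every gene past the threshold or else the pair with the largest differences. RefSeq's gene table has no strand column, so the strand of snoRNAs inside hosts was not checked. Alternatives were the filter, the rows used, normalization, the variance model, array weights, the replicate number as a block, a B cell marker covariate and each array left out in turn.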

Additional observations from a re-analysis of the deposited data

Results flagged for a closer look

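In 54 groups of 4 arrays (the members' rows, the snoRNAs and the neighbouring genes), 6 had 1 array far from the other 3 by Dixon's test, where chance gives about 1 in 20. Isotype replicate 1 was that array in 4 of the 6. The second row of Malat1 read 8.39 in isotype replicate 1, with the others between 6.41 and 6.48. Syncrip, beside Snhg5, read 9.11 there (others 9.54 to 9.56), Zfp949, on the other side of Snhg5, 6.04 (others 6.97 to 7.09), and Trnau1ap, beside Snhg12, 7.02 (others 8.18 to 8.38). Snord22, in Snhg1, read 6.4 in isotype replicate 3 (others 7.28 to 7.37), and Snord99, in Snhg12, 4.63 in anti-IL-10R replicate 1 (others 6.24 to 6.44).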

How the results depend on the processing

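The fit called 304 genes. Separate fits, each with its own count, called 145 without a filter, 460 with a stricter filter, 12 over all rows, 631 after quantile normalization (204 higher, 427 lower, against 148 and 156), 117 after median centring (42 higher, 75 lower), 1469 with array weights and 3 with the B cell covariate. Leaving out 1 array gave 3 to 1112, the latter without isotype replicate 1. Of the members, 1 was past it; 2 were with the stricter filter, 2 after quantile normalization, 3 with array weights, and 0 with the mean of all rows, over all rows and with the covariate. Leaving out 1 array gave 0 to 3. Adjusted p of Malat1 was 0.42 with the mean of its rows (difference 0.39), 0.079 over all rows and 0.143 with the covariate (difference 0.65). The cause was not tested. Snhg12 ran from -0.24 to 0.07, turning positive without isotype replicate 4. With 1 array left out, list medians ran from -0.12 to 0.11 (other hosts), 0.22 to 0.31 (other long noncoding RNAs; 0.16 without a filter), -0.17 to -0.01 (paraspeckle), -0.03 to 0.06 (nuclear speckle), -0.40 to -0.19 (snoRNP), -0.14 to -0.04 (ribosomal), 0.00 to 0.14 (MYC and mTORC1) and -0.07 to 0.20 (decay factors). In the sample titles the replicate 1 arrays of the groups carry different numbers, while those of replicates 2 to 4 match. Arrays of the same replicate number did not deviate together from their group means (r -0.05, 0.12, 0.02 and -0.16 for numbers 1 to 4). Each isotype deviation includes isotype replicate 1 through the group mean, so whether the numbers pair the samples cannot be told from this. With the replicate block, 4 genes and 0 members were past the threshold, and Malat1 had an adjusted p of 0.104 (limma). For the 7 members, Snora73a, Snora73b and Rcc1, 134 alternative values kept direction and call, 8 gained a call, 35 lost one and 1 reversed. Genes with means under 5.24, such as Tcf24 and Rab42, were too dim to test.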
